A study of Mus musculus with 4 samples.

Results

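Polyps of germ-free wild-type (WT) mice were compared with colorectal non-polyp tissue of the same group of mice, with 1 RNA-seq library on each side out of 4 libraries in the series. The WT polyp library and the WT non-polyp library were picked by their titles, and all 54621 gene names of the reference annotation that both tables list were compared. The mice were raised without microbes, were given azoxymethane (AOM), a DNA-alkylating carcinogen, and then 3 cycles of 1% dextran sulfate sodium (DSS), an agent that injures the colonic epithelium, and were sampled in week 36. The other pair of libraries came from germ-free mice lacking Clec7a (Clec7a-/-, KO) after the same treatment, and all 4 groups therefore shared AOM, DSS and germ-free housing. The non-polyp samples came, by the study's description, from near the polyps and not from untreated mice, so a change that AOM and DSS brought to the whole colon would not show between the samples. Each library was made from RNA pooled over mice, 5 per genotype by the deposited design text, while a figure legend of the study gives another number for WT mice. With 1 pooled library per group there was no replicate of either tissue, no test was possible, and every ratio is a description of these libraries alone. The WT mice were purchased and the KO mice derived by caesarean section, so genotype and source of the animals cannot be told apart where KO values stand beside WT values. The study states that polyps developed in the WT but not the KO germ-free mice. Its RNA-seq results nevertheless describe gene expression in polyps of germ-free KO mice, and GEO labels a KO library as polyps. What tissue that library holds is thus not known, and its values are given only as those of the library labelled KO polyp.

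Most colonic adenomas, in mice given AOM as in people, carry an activated Wnt pathway. Wnt ligands bind Frizzled and Lrp receptors at the bottom of the crypt, beta-catenin then enters the nucleus, binds TCF and LEF factors and switches on genes that keep crypt cells dividing, and several of these genes (Axin2, Nkd1, Notum, Rnf43, Znrf3) damp the pathway in return. In normal mucosa, cells leave this zone, stop dividing and become absorptive colonocytes, which take up salt, water and short-chain fatty acids, or secretory cells such as mucus-making goblet cells and hormone-making enteroendocrine cells. Paneth cells, which release antimicrobial peptides at the base of small intestinal crypts, are normally rare in the mouse colon.

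A gene name counted as higher or lower in polyps when the log2 ratio of TPM + 1 (transcripts per 1000000, WT polyps over WT non-polyp tissue) was above 1 or below -1, the threshold in the study's methods. Of all gene names, 2822 (5.17%) were higher and 2004 (3.67%) lower in WT polyps. Among the 17280 names with a mean of 1 TPM or more over both libraries, 2580 (14.9%) were higher and 1821 (10.5%) lower, and their median log2 ratio was 0.21. Higher names made up 58.5% of all called names with TPM as deposited and 46.0% after median-of-ratios scaling, which brought that median to 0.01. Past a log2 ratio of 3 there were 252 higher and 214 lower names, and past 5 there were 33 and 18. The higher names held 15.6% of the reference TPM in WT polyps, against 4.62% in WT non-polyp tissue, and the lower names held 5.55% in WT polyps, against 22.1% in WT non-polyp tissue. For scale, KO non-polyp tissue against WT non-polyp tissue had 415 names higher (0.76%) and 347 lower (0.636%) past the same threshold. Among names with a mean of 1 TPM or more over both WT libraries, the shares were 1.35% and 1.82%. That filter uses WT polyps and not KO non-polyp tissue, so names low in both WT libraries are left out of these shares.

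**Figure D1:**
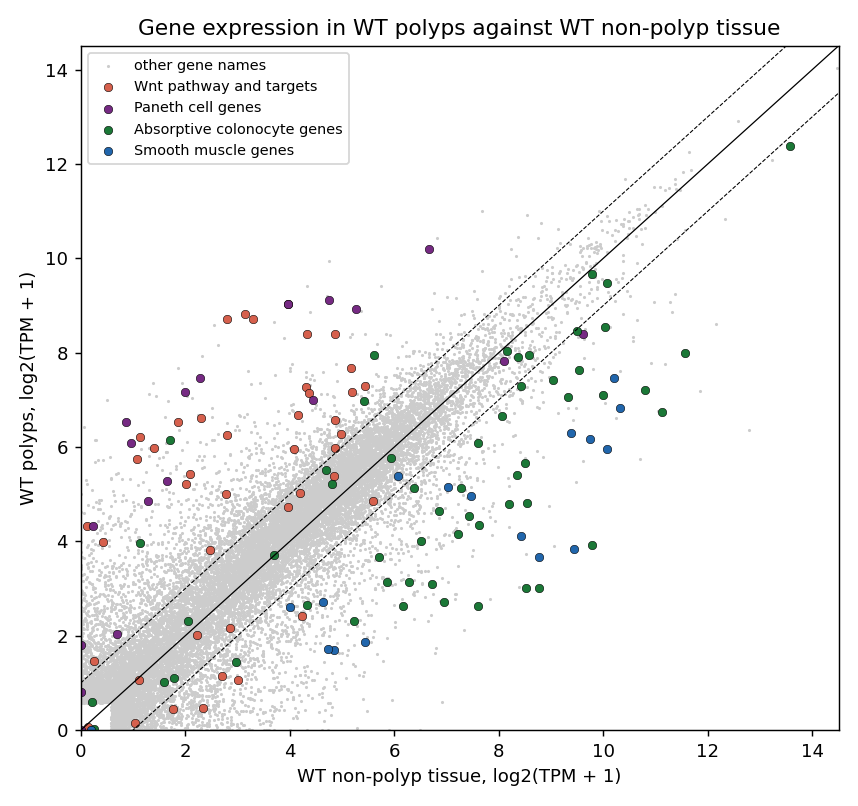
Each point is a gene name, at its log2(TPM + 1) in WT polyps (vertical axis) and in WT non-polyp tissue (horizontal axis); the solid line marks equal values, the dashed lines a log2 ratio of 1 and -1, and colours mark members of 4 gene lists. Most Wnt and Paneth cell genes lie above the upper dashed line, with 29 of 43 and 14 of 18 members higher, and most colonocyte and smooth muscle genes lie below the lower line, with 37 of 55 and 15 of 17 members lower.

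The libraries were alike in size, with 2.73 gigabases aligned to genes in WT polyps and 2.79 in WT non-polyp tissue as worked out from the coverage, and 17015 and 16745 names at 1 TPM or more. Both carried the markers of intestinal epithelium. Epcam, an epithelial adhesion protein, and Krt8, a keratin of simple epithelium, had 1833 and 3753 TPM in WT polyps, against 1338 and 3284 TPM in WT non-polyp tissue. Vil1, the brush border protein villin, had 239 TPM in WT polyps and 328 TPM in WT non-polyp tissue. The 13 pan-epithelial genes had a median log2 ratio of 0.01, with Krt18 and Cldn4 higher and none lower. Clec7a, which encodes the beta-glucan receptor Dectin-1 (GRCm38 chr6:129461591-129472779), had 31.2 TPM in WT polyps and 5.97 TPM in WT non-polyp tissue, and 0.102 and 0.0766 TPM in the library labelled KO polyp and KO non-polyp tissue, as their genotype labels state. In bulk tissue, a lower value can mean fewer cells of a type or less RNA per cell, and these cannot be told apart.

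The 15 highest ratios among well-expressed annotated genes joined Wnt antagonists, epithelial keratins, tissue proteases and antimicrobial or inflammatory proteins, with log2 ratios of 5.39 to 6.49. Il1rl1 (chr1:40429570-40465415), the receptor for the alarmin IL-33, led with 126 TPM in WT polyps and 0.414 TPM in WT non-polyp tissue. Saa3, an acute-phase serum amyloid A, and Ltf, the iron-binding lactoferrin, had 85.4 and 70.5 TPM in WT polyps, against 0.0447 and 0.202 TPM in WT non-polyp tissue. The keratins Krt15, Krt36 and Krt4 had 383, 204 and 52.1 TPM in WT polyps, against 4.90, 2.63 and 0.266 TPM in WT non-polyp tissue. Mmp10, the matrix protease stromelysin-2, had 163 TPM in WT polyps and 1.60 TPM in WT non-polyp tissue. Others were Apcdd1, Wif1 and Notum of the Wnt pathway, Cxcl5 (a neutrophil chemokine), Defa21 (an alpha-defensin), Stra6 (the retinol uptake receptor) and Tesc (the calcium-binding protein tescalcin). In WT non-polyp tissue each of the 15 stood at 0.0523% to 2.12% of its WT polyp level. The same genes lay between 0 and 28.0 TPM in the library labelled KO polyp (median 1.17 TPM) and between 0 and 1.42 TPM in KO non-polyp tissue (median 0.23 TPM), so the WT polyp library was the high one among the 4 for all 15, and Stra6 had the 28.0 TPM.

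The 15 lowest ratios joined transport proteins and enzymes of the mature colonocyte with smooth muscle genes. Mptx1 (chr1:174330518-174332873), a mucosal pentraxin, had 81.7 TPM in WT polyps, against 7081 TPM in WT non-polyp tissue. This was the largest difference in TPM among annotated names, leaving out mitochondrial, ribosomal, sex-linked and antigen receptor names. Car4, a carbonic anhydrase of the apical membrane, had 14.2 TPM in WT polyps and 875 TPM in WT non-polyp tissue. Slc26a3 (chr12:31390871-31473917), a chloride-bicarbonate exchanger, and Aqp8, a water channel, had 7.12 and 7.08 TPM in WT polyps, against 435 and 365 TPM in WT non-polyp tissue. The enzymes were Hao2 (a hydroxy acid oxidase), Aadac (an esterase), Sult1a1 (a sulfotransferase), Pck1 (the gluconeogenic phosphoenolpyruvate carboxykinase), Ugt1a7c (a glucuronosyltransferase) and Selenbp1 (a methanethiol oxidase), which had 52.4 TPM in WT polyps and 1672 TPM in WT non-polyp tissue. Insl5, a hormone of colonic enteroendocrine cells, and Slc37a2, a sugar phosphate carrier, had 3.35 and 5.22 TPM in WT polyps, against 161 and 192 TPM in WT non-polyp tissue. Des (desmin) and Cnn1 (calponin) belong to smooth muscle. Cfd, the fat cell protease adipsin, was listed at 0 in WT polyps and had 89.6 TPM in WT non-polyp tissue. Across the 15, the WT polyp level was 0% to 3.13% of the WT non-polyp level. In KO non-polyp tissue they had 1.81 to 4882 TPM with a median of 467 TPM, and Cfd had the 1.81 TPM.

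**Figure D2:**
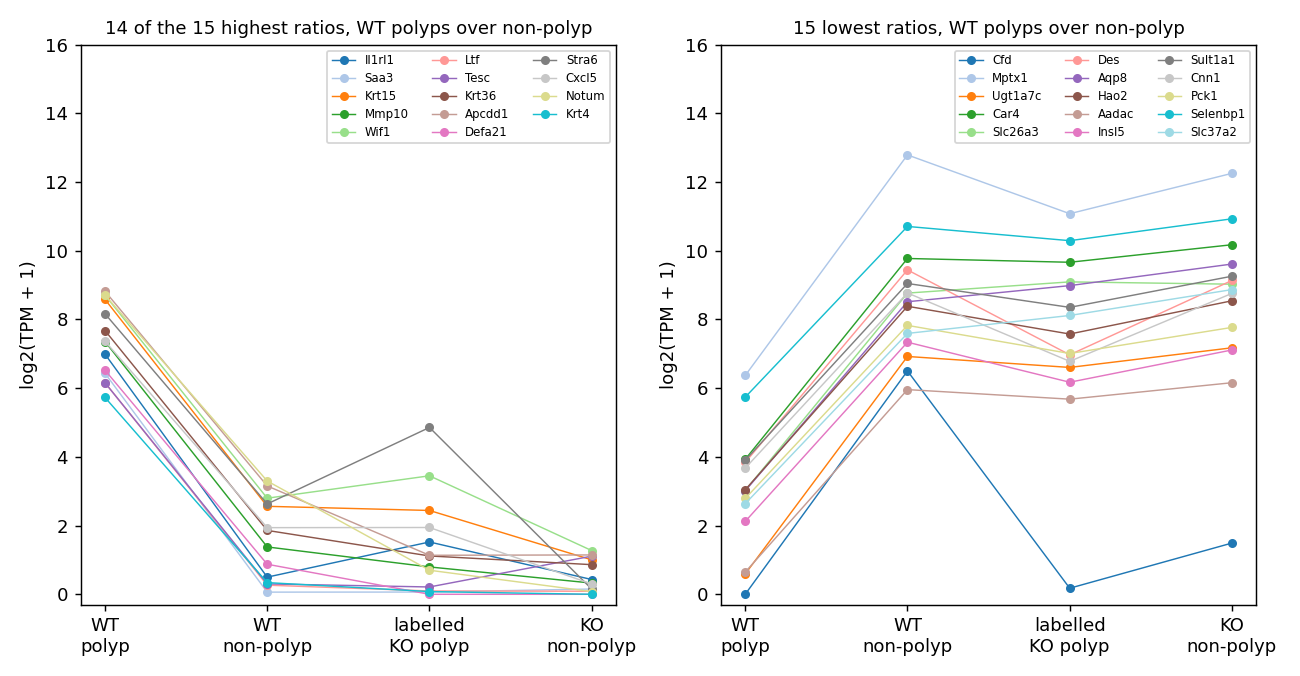
Lines join the log2(TPM + 1) of each gene in the 4 libraries, for 14 of the 15 highest (left) and the 15 lowest (right) log2 ratios of WT polyps over WT non-polyp tissue. In the left panel WT polyps lie above the other 3 libraries for every gene, and in the right panel WT polyps lie below them for every gene, with Cfd also low in the KO libraries.

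Wnt pathway genes were higher in WT polyps as a group, with 29 of 43 members higher and 5 lower and a median log2 ratio of 1.97, against 0.21 over names with a mean of 1 TPM or more. Of the 43, 40 had that mean, where 14.9% of names were higher, against 5.17% over all names. Their summed level was 4419 TPM in WT polyps, against 546 TPM in WT non-polyp tissue and 607 and 498 TPM in the library labelled KO polyp and KO non-polyp tissue. Of the secreted and membrane-bound inhibitors, Apcdd1, a membrane-bound Wnt antagonist, had 451 TPM in WT polyps and 7.90 TPM in WT non-polyp tissue. Wif1, which binds Wnt ligands outside the cell, and Notum, an enzyme that strips the lipid from Wnt ligands, were 70.1 and 47.3 times as high in WT polyps. Dkk2, a ligand of the Lrp co-receptors, had 53.1 TPM in WT polyps and 1.12 TPM in WT non-polyp tissue. Sfrp1 and Sfrp5, secreted decoys for Wnt ligands, went the other way with 4.38 and 0.373 TPM in WT polyps, against 17.8 and 2.41 TPM in WT non-polyp tissue.

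The intracellular feedback genes showed the same direction in 8 of 9 members, with a median of 3.44. Axin2, a scaffold of the complex that destroys beta-catenin, and Nkd1, an inhibitor of Dishevelled, had 335 and 334 TPM in WT polyps, against 28.1 and 19.1 TPM in WT non-polyp tissue. Rnf43 and Znrf3, the ligases that remove Frizzled receptors from the surface, had 153 and 31.3 TPM in WT polyps, against 18.8 and 5.84 TPM in WT non-polyp tissue. The nuclear partners of beta-catenin were also higher. Lef1 and Tcf7 had 19.2 and 74.9 TPM in WT polyps, against 0.0821 and 5.996 TPM in WT non-polyp tissue, and Sp5, a target factor that represses other Wnt targets, had 61.8 TPM in WT polyps and 1.63 TPM in WT non-polyp tissue. Nkd2, the paralog of Nkd1, was lower with 1.21 TPM in WT polyps and 5.48 TPM in WT non-polyp tissue.

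Target genes outside the feedback loop were higher in 10 of 12 members and lower in none. The protease Mmp7 and the transcription factor Prox1 had 523 and 92.05 TPM in WT polyps, against 14.6 and 2.62 TPM in WT non-polyp tissue. Ccnd1 (cyclin D1) and the transcription factor gene Myc had 202 and 142 TPM in WT polyps, against 35.2 and 35.7 TPM in WT non-polyp tissue, while Ephb2 and Ephb3, receptors that position cells along the crypt, had log2 ratios of 0.84 and 0.53 and did not pass the threshold. Among ligands, Wnt6 and Wnt10a, which are neighbours on chromosome 1, had 97.6 and 72.9 TPM in WT polyps, against 3.96 and 1.20 TPM in WT non-polyp tissue. Wnt2b, a ligand of mesenchymal cells, was lower with 1.10 TPM in WT polyps and 7.05 TPM in WT non-polyp tissue. The receptors and agonists were mixed. The receptor Fzd10 and the co-receptor Lrp5 had 14.8 and 62.6 TPM in WT polyps, against 0.350 and 28.1 TPM in WT non-polyp tissue, and the co-receptor Lrp6 had a log2 ratio of -0.75. Rspo3, a stromal R-spondin that strengthens Wnt signals, was lower with 0.388 TPM in WT polyps and 4.06 TPM in WT non-polyp tissue. The R-spondins Rspo1 and Rspo2 were low in both libraries, at 0.113 and 0.0467 TPM in WT polyps, against 1.06 and 0.108 TPM in WT non-polyp tissue.

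**Figure D3:**
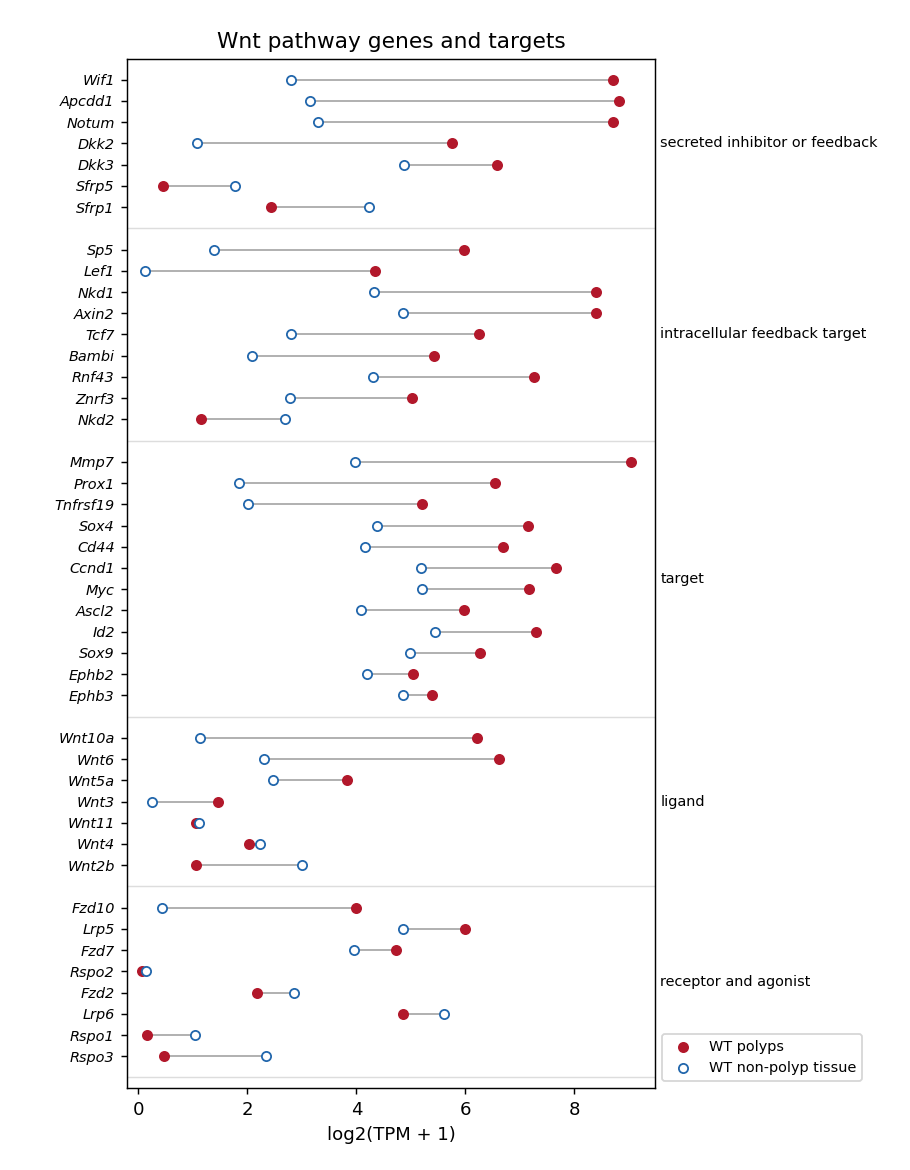
Levels of the 43 Wnt pathway genes, as log2(TPM + 1), in WT polyps (filled circles) and WT non-polyp tissue (open circles), sorted by log2 ratio within each role. The inhibitors, feedback genes and targets are mostly far to the right in WT polyps, with Wif1, Notum and Apcdd1 at 418, 418 and 451 TPM, while R-spondins lie to the left.

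The promoter of Sp5 is shown because it holds the TCF/LEF core motif more than once. The sequence is from RefSeq on GRCm38.p6 (chr2:70474673-70474972, plus strand) and runs from 250 bases before to 50 bases after the start site, with CTTTGA, searched on both strands, in capitals.
Sp5 promoter: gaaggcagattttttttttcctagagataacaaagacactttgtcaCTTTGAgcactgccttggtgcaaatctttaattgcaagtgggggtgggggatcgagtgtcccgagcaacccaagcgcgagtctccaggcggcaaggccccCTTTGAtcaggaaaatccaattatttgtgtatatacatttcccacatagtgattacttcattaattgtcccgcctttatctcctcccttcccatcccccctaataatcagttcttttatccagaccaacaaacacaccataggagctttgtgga
The matches begin at -204 and -104 from the start site. Of the 29 Wnt pathway genes that were higher, 18 had a promoter in the table, and 4 of these (22.2%) held the motif, against 16.7% of all higher genes, 15.9% of all lower genes and 18.2% of all genes with a promoter in the table. The share among the higher Wnt pathway genes was thus near that of all genes, and a match in such a window is no evidence of binding.

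Genes of crypt stem cells and of the regenerating epithelium were higher as well. Of 15 stem cell genes 9 were higher and 2 lower (median 1.53), among them Axin2, Ascl2 and Znrf3, which are also counted with the Wnt pathway. Lgr5, the R-spondin receptor of crypt base stem cells, had 31.8 TPM in WT polyps and 4.57 TPM in WT non-polyp tissue, a log2 ratio of 2.56. Smoc2, a matricellular stem cell marker, and Msi1, an RNA-binding protein, had 139 and 10.7 TPM in WT polyps, against 38.3 and 0.765 TPM in WT non-polyp tissue. Lrig1, which restrains EGF receptors, was lower with 35.2 TPM in WT polyps and 75.1 TPM in WT non-polyp tissue, and Olfm4 was nearly at 0 in both libraries, at 0.0834 TPM in WT polyps, against 0 TPM in WT non-polyp tissue. Of 24 fetal-like and regeneration genes, which epithelium expresses before birth and while it heals, 15 were higher and none lower (median 1.34). Msln (mesothelin), Spp1 (osteopontin) and Anxa8 (an annexin) had 58.8, 27.5 and 338 TPM in WT polyps, against 2.09, 0.994 and 42.3 TPM in WT non-polyp tissue. Ctgf and Cyr61, usual targets of the Hippo effector Yap, had log2 ratios of -0.11 and 0.71 and did not pass.

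Genes of cell division were higher in 28 of 40 members with none lower (median 1.11), with log2 ratios up to 2.04. Among replication genes 17 of 20 were higher, for example Rrm2, a subunit of ribonucleotide reductase, and Mcm3, of the replicative helicase, with 59.4 and 60.7 TPM in WT polyps, against 13.7 and 17.3 TPM in WT non-polyp tissue. Among mitosis genes 11 of 20 were higher, with Top2a, the topoisomerase that untangles chromosomes, at 127 TPM in WT polyps, against 51.5 TPM in WT non-polyp tissue, while Mki67 and Plk1 had log2 ratios of 0.40 and 0.02. Cdk4, the partner of cyclin D, had 454 TPM in WT polyps and 160.3 TPM in WT non-polyp tissue. The cell cycle inhibitor gene with the largest ratio was Cdkn2a, which encodes p16 and p19Arf, with 67.2 TPM in WT polyps and 2.09 TPM in WT non-polyp tissue, and Cdkn1a (p21) had 298 TPM in WT polyps and 243 TPM in WT non-polyp tissue and did not pass. The division median was 0.90 under median-of-ratios scaling and so fell short of the threshold there.

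Of 8 ligands of the EGF receptor family 6 were higher and Egf itself was lower, where 14.9% of names with a mean of 1 TPM or more were higher. Nrg1, a ligand of Erbb3 and Erbb4, had 9.53 TPM in WT polyps and 0.272 TPM in WT non-polyp tissue, a log2 ratio of 3.05, and the EGF receptor ligands Hbegf, Ereg and Areg had 48.000, 19.3 and 51.3 TPM in WT polyps, against 11.1, 4.40 and 18.7 TPM in WT non-polyp tissue. None of the 4 receptors was higher, and Erbb3 was lower with 67.2 TPM in WT polyps and 157 TPM in WT non-polyp tissue. In the BMP and TGF-beta group 13 of 29 members were higher and 3 lower, and 28 had a mean of 1 TPM or more. Over all names with that mean, 14.9% were higher and 10.5% lower, so the lower count was near that share. Inhba, the subunit of activin A, had 25.9 TPM in WT polyps and 0.498 TPM in WT non-polyp tissue, a log2 ratio of 4.16, and the ligands Bmp7 and Tgfb1 had 34.9 and 36.6 TPM in WT polyps, against 5.29 and 13.7 TPM in WT non-polyp tissue. The antagonists split. Bambi, a decoy receptor, and Fst, which binds activin, were higher with 42.2 and 21.4 TPM in WT polyps, against 3.26 and 3.61 TPM in WT non-polyp tissue, whereas the BMP antagonist Grem1 was lower with 10.02 TPM in WT polyps and 27.7 TPM in WT non-polyp tissue. Of 17 Notch pathway genes 3 were higher and 3 lower, where 14.9% of names with a mean of 1 TPM or more were higher and 10.5% lower. The secretory lineage switch Atoh1 was lower with 10.5 TPM in WT polyps and 63.9 TPM in WT non-polyp tissue, and the Notch target Hes1 had 139 TPM in WT polyps and 96.2 TPM in WT non-polyp tissue without passing the threshold.

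Absorptive colonocyte genes were lower in WT polyps, with 37 of 55 members lower and 4 higher and a median log2 ratio of -1.69, and 53 of them had a mean of 1 TPM or more, where 10.5% of names were lower, against 3.67% over all names. Their summed level was 10841 TPM in WT polyps and 32569.8 TPM in WT non-polyp tissue. Clca1, with 107 and 2239 TPM of these sums, is also counted with goblet cell genes. Of 23 transport genes 18 were lower. Slc5a8, a sodium-coupled carrier of butyrate, and Slc16a1, the monocarboxylate carrier Mct1, had 5.54 and 34.2 TPM in WT polyps, against 123 and 153 TPM in WT non-polyp tissue. The chloride channel Cftr, the proton-potassium pump Atp12a and the sulfate carrier Slc26a2 had 11.8, 22.2 and 26.6 TPM in WT polyps, against 51.03, 171 and 292 TPM in WT non-polyp tissue. Slc9a3, the apical sodium-proton exchanger, and Clca4b, a relative of mucus protease genes, went in the other direction with 124 and 70.000 TPM in WT polyps, against 42.02 and 2.29 TPM in WT non-polyp tissue.

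Brush border genes were unequal, with 16 of 27 lower. Muc3, a membrane mucin, had 255 TPM in WT polyps and 3034 TPM in WT non-polyp tissue, a log2 ratio of -3.57, and Mep1a (the protease meprin) and Guca2a (the hormone guanylin) had 19.3 and 137 TPM in WT polyps, against 197 and 1013 TPM in WT non-polyp tissue. Lypd8, which keeps flagellated bacteria from the epithelium, was lower at 5365 TPM in WT polyps, against 12129.8 TPM in WT non-polyp tissue and remained among the most abundant transcripts of both libraries. Some structural genes of the mature surface differed little. Krt20, a keratin of the surface, and Vil1 had log2 ratios of -0.12 and -0.46. Among intestinal identity factors 7 of 18 were lower and 1 higher (median -0.45). The vitamin D receptor Vdr had 25.1 TPM in WT polyps and 207 TPM in WT non-polyp tissue, a log2 ratio of -2.998, and the differentiation factor Klf4 had 142 TPM in WT polyps and 456 TPM in WT non-polyp tissue. The intestinal homeobox factors Cdx1 and Cdx2 had 146 and 20.001 TPM in WT polyps, against 403 and 50.03 TPM in WT non-polyp tissue. The higher factor was Prdm1, which is active in fetal gut and in plasma cells, with 11.4 TPM in WT polyps and 1.25 TPM in WT non-polyp tissue.

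**Figure D4:**
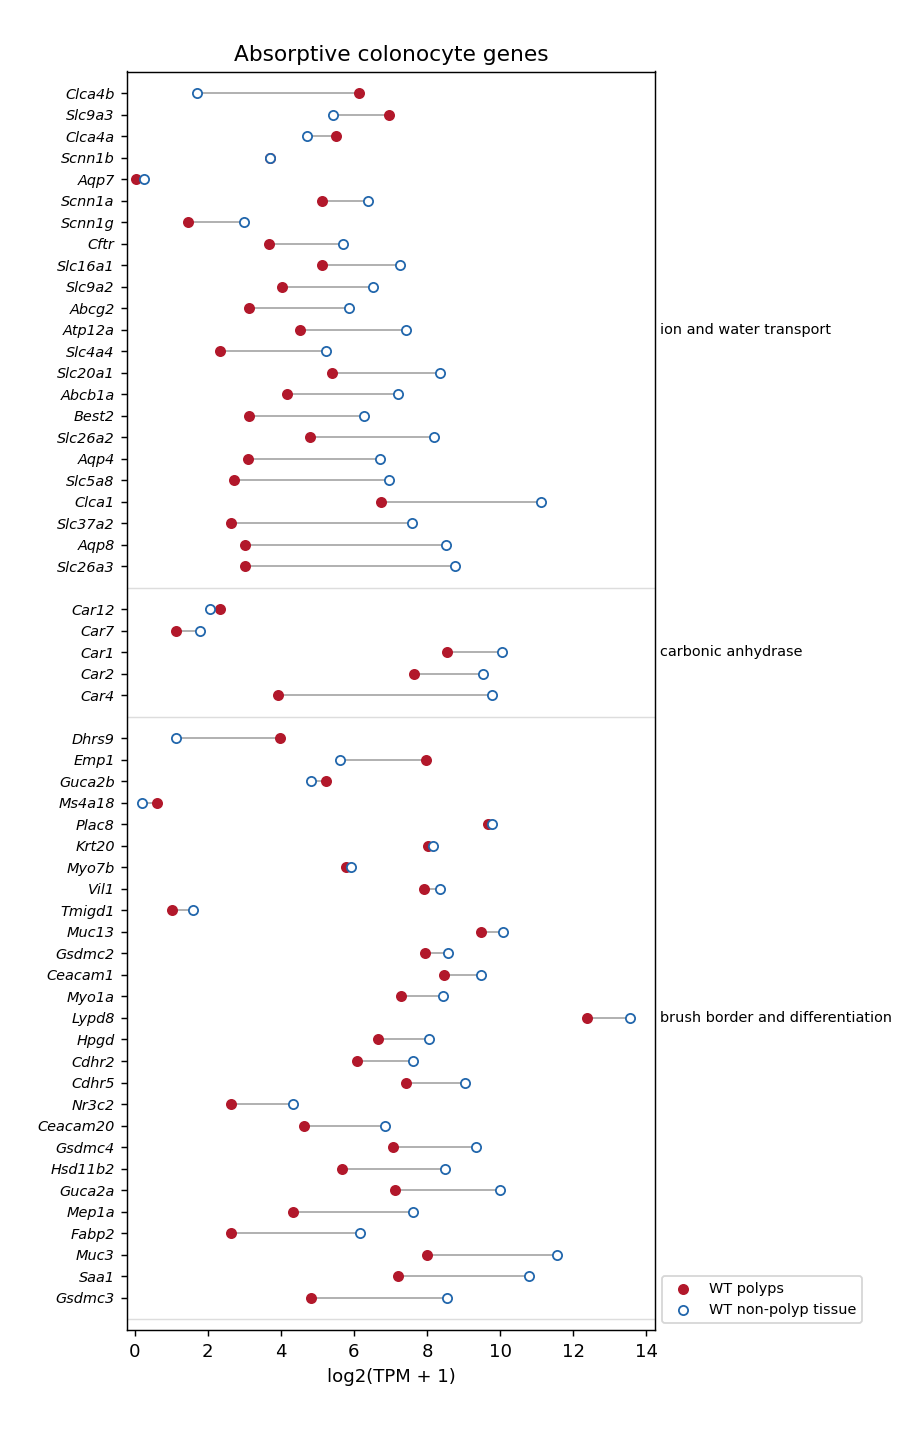
Levels of the 55 colonocyte genes, as log2(TPM + 1), in WT polyps (filled circles) and WT non-polyp tissue (open circles), sorted by log2 ratio within each role. WT polyps lie to the left for most genes, as for Car4, Slc26a3 and Aqp8, and to the right past the threshold for 4: Slc9a3, Clca4b, Dhrs9 and Emp1.

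Enzymes that clear foreign compounds and hormones were lower in 19 of 31 members and higher in 3. The cytochromes P450 Cyp4f14 and Cyp2c55 and the carboxylesterase Ces2c had 5.87, 6.42 and 4.46 TPM in WT polyps, against 143, 141 and 104 TPM in WT non-polyp tissue. Ugt1a7c had 0.508 TPM in WT polyps and 120.3 TPM in WT non-polyp tissue, but the 9 Ugt1a genes share their last exons, so reads cannot be placed on each of them with certainty and the values of single members are uncertain. Gsta4, a glutathione transferase for lipid peroxidation products, was higher with 173 TPM in WT polyps and 19.9 TPM in WT non-polyp tissue. Of 21 ketogenesis and fatty acid oxidation genes 5 were lower and 1, the pyruvate dehydrogenase kinase Pdk4, was higher. Glycolysis genes had a median of -0.08, yet the lactate exporter Slc16a3 and the regulator Pfkfb3 were higher with 59.3 and 14.2 TPM in WT polyps, against 7.36 and 4.20 TPM in WT non-polyp tissue. Retinoid genes split within the same steps. Adh1, an alcohol dehydrogenase that oxidises retinol, and Aldh1a1, which makes retinoic acid, were lower with 107 and 8.36 TPM in WT polyps, against 2119 and 45.4 TPM in WT non-polyp tissue, whereas Rdh10 and Aldh1a3, enzymes of the same steps, were higher with 170.4 and 112 TPM in WT polyps, against 21.2 and 4.68 TPM in WT non-polyp tissue.

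The secretory lineages differed in direction. Of 18 goblet cell genes 12 were lower and none higher (median -1.77), and their sum was 3797 TPM in WT polyps and 14983 TPM in WT non-polyp tissue. Zg16, a mucus lectin, and Clca1, a mucus protease, had 386 and 107 TPM in WT polyps, against 4561 and 2239 TPM in WT non-polyp tissue. Muc2, the main gel-forming mucin, had 364 TPM in WT polyps and 801 TPM in WT non-polyp tissue, a log2 ratio of -1.14, and Fcgbp, a protein of the mucus gel, had 94.1 TPM in WT polyps and 679.8 TPM in WT non-polyp tissue. Spink4, a peptide of goblet cells, stayed near equal with 1371 TPM in WT polyps and 1404 TPM in WT non-polyp tissue. Of 23 enteroendocrine genes 15 were lower and 2 higher. The granule proteins Chga and Chgb had 8.71 and 8.08 TPM in WT polyps, against 75.7 and 82.4 TPM in WT non-polyp tissue, and the hormone genes Gcg (glucagon precursor) and Sst (somatostatin) had 2.04 and 0.143 TPM in WT polyps, against 50.04 and 24.2 TPM in WT non-polyp tissue. Pyy (peptide YY) was near equal with 275 TPM in WT polyps and 242 TPM in WT non-polyp tissue, and the higher members were Nts (neurotensin) and Cck (cholecystokinin) with 6.97 and 5.90 TPM in WT polyps, against 0.184 and 1.44 TPM in WT non-polyp tissue.

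Paneth cell genes were higher in 14 of 18 members and lower in 1, with the highest median of the 51 gene lists at 3.59. Lyz1, the lysozyme of Paneth cells, had 1168 TPM in WT polyps and 101 TPM in WT non-polyp tissue. Alpha-defensins reached 487 TPM for Defa24 in WT polyps, against 37.5 TPM in WT non-polyp tissue, and Defa22, Defa30 and Defa21 had 144, 176 and 91.1 TPM in WT polyps, against 2.97, 3.86 and 0.834 TPM in WT non-polyp tissue. Reg3g and Reg3b, antibacterial lectins, and Pla2g2a, a bactericidal secreted phospholipase, had 66.5, 18.95 and 553 TPM in WT polyps, against 0.941, 0.185 and 26.1 TPM in WT non-polyp tissue. Reg4, expressed by deep crypt secretory cells of the colon, was lower with 334 TPM in WT polyps and 785 TPM in WT non-polyp tissue, and Ang4, a ribonuclease, had 226 TPM in WT polyps and 272 TPM in WT non-polyp tissue. Alpha-defensin genes are close copies of one another, so their single values are uncertain while their direction was shared. The list summed to 3984 TPM in WT polyps and 1270 TPM in WT non-polyp tissue, against 407 and 428 TPM in the library labelled KO polyp and KO non-polyp tissue.

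Genes of stratified squamous epithelium, such as the lining of the anal canal, were higher in 12 of 21 members with none lower (median 1.36), and summed to 750.4 TPM in WT polyps, 36.8 TPM in WT non-polyp tissue, 29.1 TPM in the library labelled KO polyp and 22.1 TPM in KO non-polyp tissue. The basal keratins Krt14 and Krt5 had 98.4 and 27.5 TPM in WT polyps, against 2.07 and 0.221 TPM in WT non-polyp tissue, the suprabasal keratins Krt13 and Krt6a had 61.2 and 26.4 TPM in WT polyps, against 1.55 and 0.0957 TPM in WT non-polyp tissue, and Dsg3, a desmosomal cadherin of squamous cells, had 6.46 TPM in WT polyps and 0.0299 TPM in WT non-polyp tissue. Trp63, the master factor of squamous basal cells, was at 0.125 TPM in WT polyps, against 0.00434 TPM in WT non-polyp tissue, Krt1, a keratin of cornified layers, was at 0.0270 TPM in WT polyps, against 0.0370 TPM in WT non-polyp tissue, and Sprr3 was listed at 0 in both. Whether squamous cells in the polyp sample contributed was not tested.

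Inflammatory cytokines and chemokines were higher in 21 of 35 members and lower in 5 (median 1.18). Il1b, the pyrogenic cytokine interleukin-1 beta, had 68.1 TPM in WT polyps and 3.85 TPM in WT non-polyp tissue, a log2 ratio of 3.83. Il11, which signals through gp130, Il23a, a subunit of interleukin-23, and Tnf had 19.2, 20.5 and 17.01 TPM in WT polyps, against 0.680, 0.632 and 2.43 TPM in WT non-polyp tissue. The neutrophil chemokines Cxcl5, Cxcl2 and Cxcl1 had 164, 32.96 and 19.5 TPM in WT polyps, against 2.84, 1.93 and 0.533 TPM in WT non-polyp tissue. The monocyte chemokines Ccl2 and Ccl7 had 18.9 and 13.8 TPM in WT polyps, against 2.14 and 0.853 TPM in WT non-polyp tissue. Other members went the opposite way. Ccl28, which draws IgA plasma cells to mucosa, Cxcl12, a stromal chemokine, and Il18, an epithelial cytokine, were lower with 6.38, 14.3 and 110.1 TPM in WT polyps, against 81.1, 86.1 and 255 TPM in WT non-polyp tissue. The cytokines of lymphoid cells were near 0, with Il17a at 0.102 TPM in WT polyps, against 0.0988 TPM in WT non-polyp tissue and Ifng at 0.0921 TPM in WT polyps, against 0.0893 TPM in WT non-polyp tissue.

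Many myeloid and mast cell genes were also higher. Of 21 neutrophil and granulocytic suppressor cell genes 13 were higher and 1 lower (median 1.79). S100a9 and S100a8, the subunits of calprotectin, and Csf3r, the G-CSF receptor, had 101, 53.5 and 11.1 TPM in WT polyps, against 3.74, 1.82 and 1.41 TPM in WT non-polyp tissue. Ly6g, used to mark neutrophils, was lower with 73.96 TPM in WT polyps and 166 TPM in WT non-polyp tissue, and the granule genes of their precursors were at or near 0, with Mpo at 0.0445 TPM in WT polyps and listed at 0 in WT non-polyp tissue, and Elane listed at 0 in both. Of 15 monocyte and monocytic suppressor cell genes 8 were higher and 2 lower (median 1.29). Arg1, the arginase of suppressive myeloid cells, and Nos2, the inducible nitric oxide synthase, had 61.3 and 3.75 TPM in WT polyps, against 1.24 and 0.381 TPM in WT non-polyp tissue. Ly6c2, a marker of inflammatory monocytes, and F13a1, a coagulation factor subunit of monocytes and macrophages, were lower with 0.386 and 3.08 TPM in WT polyps, against 8.79 and 7.25 TPM in WT non-polyp tissue, and the chemokine receptor Ccr2 and Plac8 had log2 ratios of 0.02 and -0.12. Of 15 mast cell genes 10 were higher and 1 lower (median 1.85). The mucosal mast cell proteases Mcpt1 and Mcpt2 had 61.6 and 31.8 TPM in WT polyps, against 9.88 and 4.62 TPM in WT non-polyp tissue, and the tryptase Tpsb2 and the histamine-making enzyme Hdc had 17.9 and 18.6 TPM in WT polyps, against 0.288 and 0.319 TPM in WT non-polyp tissue. Kit, the receptor of mast cells and of the pacemaker cells of gut muscle, was lower with 6.999 TPM in WT polyps and 36.9 TPM in WT non-polyp tissue.

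Resident macrophage genes did not move together, with 1 of 16 higher and 4 lower. Over names with a mean of 1 TPM or more, 14.9% were higher and 10.5% lower. The complement genes C1qa, C1qb and C1qc had log2 ratios of 0.87, 0.77 and 0.87, below the threshold, while Cd163, Folr2 and Mertk, which mark long-lived tissue macrophages, were lower with 0.165, 1.48 and 5.79 TPM in WT polyps, against 4.48, 10.4 and 28.3 TPM in WT non-polyp tissue. Class II antigen presentation genes were near equal, with H2-Ab1 at 394 TPM in WT polyps, against 258 TPM in WT non-polyp tissue and none of 11 members higher. The lysosomal protease Ctss was the lower one, with 251 TPM in WT polyps and 537 TPM in WT non-polyp tissue.

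The study is about Dectin-1, and of 10 genes of its pathway and related lectins 5 were higher and 1 lower (median 0.93). Clec7a had a log2 ratio of 2.21, and Lgals9, which encodes galectin-9, a ligand of Dectin-1, and Clec4n, the receptor Dectin-2, had 244 and 31.3 TPM in WT polyps, against 74.3 and 6.63 TPM in WT non-polyp tissue. The adaptor Card9 had 5.85 TPM in WT polyps and 1.63 TPM in WT non-polyp tissue, whereas the kinase Syk, Bcl10 and Malt1 had log2 ratios of 0.59, 0.17 and 0.14 and did not pass. The lower one was the lectin Cd209a, with 0.372 TPM in WT polyps and 2.76 TPM in WT non-polyp tissue. Of 20 prostaglandin E2 genes 8 were higher and 3 lower. All members of both groups had a mean of 1 TPM or more, where 14.9% of names were higher and 10.5% lower. Among the 8 was Pla2g2a, which is also counted with Paneth cell genes. Ptgs2, the inducible cyclooxygenase, had 26.7 TPM in WT polyps and 1.67 TPM in WT non-polyp tissue, a log2 ratio of 3.37. Ptges, the terminal synthase, and Abcc4, a prostaglandin exporter, had 17.1 and 40.6 TPM in WT polyps, against 6.84 and 8.53 TPM in WT non-polyp tissue, while Hpgd, which degrades prostaglandin E2, was lower with 99.8 TPM in WT polyps and 266 TPM in WT non-polyp tissue. Of the 4 receptors Ptger3 was lower with 0.281 TPM in WT polyps and 10.3 TPM in WT non-polyp tissue, and Ptger4 had a log2 ratio of 0.37.

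The interleukin-22 pathway had little of the cytokine itself, at 0.215 TPM in WT polyps, against 0 TPM in WT non-polyp tissue. Il22ra2, which encodes the soluble decoy IL-22-binding protein, was lower with 0.425 TPM in WT polyps and 4.81 TPM in WT non-polyp tissue, and the epithelial receptor Il22ra1 was lower with 12.8 TPM in WT polyps and 34.4 TPM in WT non-polyp tissue. Response genes went both ways, with 11 of 18 higher and 2 lower. Among the higher ones, S100a8, S100a9 and Lcn2 are also counted with neutrophil genes and Reg3g with Paneth cell genes. Socs3, a feedback inhibitor of Stat3, and Lcn2, a siderophore-binding protein, were higher with 68.1 and 43.7 TPM in WT polyps, against 14.6 and 5.30 TPM in WT non-polyp tissue. Saa1, another serum amyloid A, and Pigr, the carrier that moves IgA into the lumen, were lower with 147 and 217 TPM in WT polyps, against 1775 and 2312 TPM in WT non-polyp tissue. Interferon-stimulated genes were higher in 10 of 21 members, with none lower (median 0.82) and Usp18, an inhibitor of interferon signals, first with 45.6 TPM in WT polyps and 6.03 TPM in WT non-polyp tissue.

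Lymphocyte genes changed less than the antibody genes. Of 14 B cell genes none was higher and 2 were lower, and of 20 T cell genes 5 were higher and 1 lower. The shares over names with a mean of 1 TPM or more were 14.9% higher and 10.5% lower. Trac, the constant part of the alpha chain of the T cell receptor, had 11.3 TPM in WT polyps, against 1.95 TPM in WT non-polyp tissue. No gene of 13 for NK and cytotoxic cells passed the threshold in either direction. The 393 immunoglobulin names summed to 617 TPM in WT polyps and 5881 TPM in WT non-polyp tissue, and to 21767 and 13748 TPM in the library labelled KO polyp and KO non-polyp tissue. Igha, the heavy chain of IgA, and Jchain, which joins IgA monomers, had 96.4 and 13.4 TPM in WT polyps, against 1204 and 110.2 TPM in WT non-polyp tissue. Sdc1, a plasma cell marker that epithelium also makes, went the other way with 182 TPM in WT polyps and 20.4 TPM in WT non-polyp tissue.

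Smooth muscle genes were lower in 15 of 17 members with none higher, and their median of -3.10 was the lowest of the 51 lists. They summed to 664 TPM in WT polyps and 7027 TPM in WT non-polyp tissue, against 2169 and 6784 TPM in the library labelled KO polyp and KO non-polyp tissue. Des, the smooth muscle myosin Myh11 and the enteric actin Actg2 had 13.3, 16.4 and 61.2 TPM in WT polyps, against 695, 343 and 1074 TPM in WT non-polyp tissue. Enteric neuron and glia genes were lower in 14 of 19 members with none higher. The neuropeptide Vip, the neuronal filament Prph and the glial factor Sox10 had 0.258, 0.596 and 0.0782 TPM in WT polyps, against 26.6, 20.6 and 3.80 TPM in WT non-polyp tissue, and Gfap and Chat were listed at 0 in WT polyps. Adipocyte genes were lower in 9 of 11 members with none higher, and Adipoq, which encodes adiponectin, was listed at 0 in WT polyps and had 11.1 TPM in WT non-polyp tissue. They summed to 32.4 TPM in WT polyps and 283 TPM in WT non-polyp tissue. In the library labelled KO polyp and in KO non-polyp tissue they summed to 53.2 and 69.2 TPM, so KO non-polyp tissue was also below WT non-polyp tissue. Muscle wall, nerve and fat RNA was thus scarcer in the polyp sample, and its part in the other lower genes, in particular those that stroma also expresses, was not tested. Epcam, Krt8 and Vil1, by contrast, had log2 ratios between -0.46 and 0.45. All 13 pan-epithelial genes ran from -0.97 to 4.48, with 2 higher, none lower and a median of 0.01.

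Fibroblast and matrix genes were mixed. Fibrillar collagens Col1a1 and Col1a2 had 184 and 149 TPM in WT polyps, against 64.1 and 61.8 TPM in WT non-polyp tissue, the basement membrane collagens Col4a1 and Col4a2 had log2 ratios of 1.19 and 1.17, and Pdgfra, a receptor of mucosal fibroblasts, had 51.1 TPM in WT polyps and 20.5 TPM in WT non-polyp tissue. Dpt and Pi16, genes of adventitial fibroblasts, were lower with 25.1 and 0.577 TPM in WT polyps, against 125 and 5.57 TPM in WT non-polyp tissue, and Lum and Postn were lower with 6.41 and 53.5 TPM in WT polyps, against 34.2 and 171 TPM in WT non-polyp tissue. The proteases that cut the matrix were higher in 11 of 14 members with none lower, among them the collagenase Mmp13, the membrane-bound Mmp14 and Plau (urokinase) with 48.004, 283 and 77.5 TPM in WT polyps, against 1.76, 69.8 and 16.5 TPM in WT non-polyp tissue. The inhibitor Timp1 was higher too, with 33.5 TPM in WT polyps and 3.47 TPM in WT non-polyp tissue. Endothelial genes were near equal, with a median of -0.06, and Prox1, which lymphatic endothelium also expresses, was the higher member. Lyve1, another lymphatic gene, was lower with 12.1 TPM in WT polyps and 26.7 TPM in WT non-polyp tissue.

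**Figure D5:**
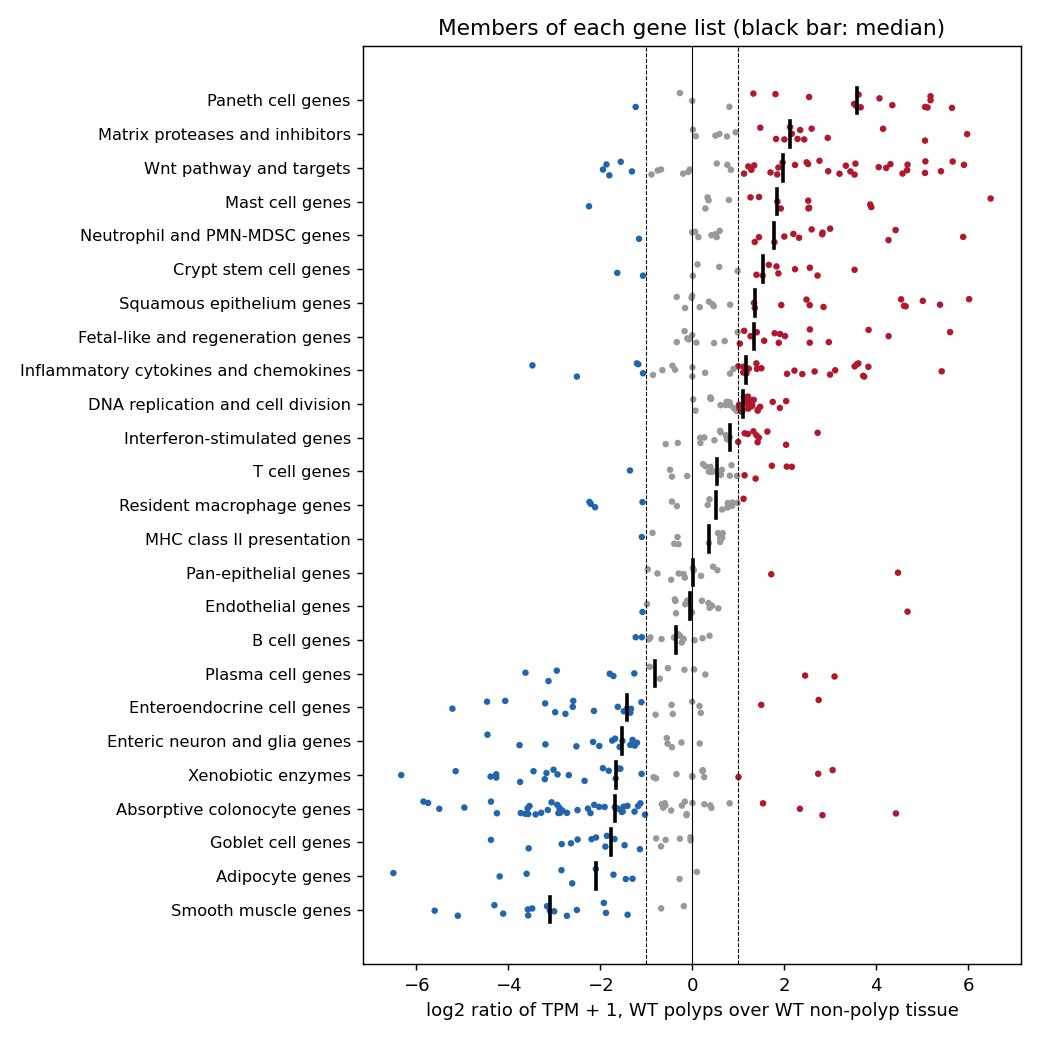
Log2 ratio of TPM + 1, WT polyps over WT non-polyp tissue, of every listed member of 25 gene lists, sorted by their medians (black bars); red points are above 1, blue points below -1 and grey points between. Medians run from 3.59 for Paneth cell genes to -3.10 for smooth muscle genes, with endothelial and pan-epithelial genes near 0.

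Other contrasts within families were large. Of 4 metallothioneins, which bind zinc and copper, Mt4 and Mt3 had 984 and 399 TPM in WT polyps, against 26.05 and 11.9 TPM in WT non-polyp tissue, while Mt1 had 324 TPM in WT polyps and 448 TPM in WT non-polyp tissue and did not pass. Cldn4, a tight junction claudin, had 584 TPM in WT polyps and 25.3 TPM in WT non-polyp tissue, and Cldn15 and Cldn8 were lower with 14.01 and 20.1 TPM in WT polyps, against 79.9 and 82.1 TPM in WT non-polyp tissue. Among homeobox genes that give the gut its positions, Hoxd12 and Hoxa9 were higher with 44.4 and 111 TPM in WT polyps, against 1.93 and 39.97 TPM in WT non-polyp tissue, whereas Hoxb13, a gene of the hindgut, had 228 TPM in WT polyps and 415 TPM in WT non-polyp tissue without passing. Mgmt, which repairs the DNA alkylation that AOM causes, was low in both libraries with 1.34 TPM in WT polyps and 2.75 TPM in WT non-polyp tissue.

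Some of the genes past the threshold lay side by side. Among 11927 annotated names with 5 TPM or more in the higher library there were 33 stretches of 4 or more consecutive names past the threshold in the same direction, 19 higher and 14 lower. On chromosome 9, Mmp13, Mmp12, Mmp3, Mmp10 and Mmp7 and their neighbours Cbx3-ps8 and Tmem123 formed a stretch of 7 higher names (chr9:7272514-7794333). On chromosome 5, the neutrophil chemokines Cxcl3, Cxcl1 and Cxcl2, the enzyme gene Mthfd2l and the EGF receptor ligands Ereg, Areg and Btc formed another of 7 (chr5:90786103-91402994). On chromosome 11, Notum and its antisense neighbour Notumos lay in a stretch of 6 that ran to Mafg and Aspscr1 (chr11:120625117-120709447), and reads of Notum and Notumos may not be separable. The lower stretches held the 9 Ugt1a genes on chromosome 1, 7 Cyp2d names on chromosome 15 and the immunoglobulin segments, of which the longest stretch counted 43 names on chromosome 6. Several stretches are tandem copies, where shared reads can carry a value from 1 copy to the next.

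Among the miRNA genes in the tables, Mir31 was listed at 31.2 TPM in WT polyps and at 0 in WT non-polyp tissue, the library labelled KO polyp and KO non-polyp tissue. The value is for fragments of its hairpin locus in a library of long RNA, and the mature miRNAs were not measured. The mature sequences are given because miR-31 is an oncogenic miRNA of the intestinal epithelium, with the seed (bases 2 to 8) in capitals, from RefSeq on GRCm38.p6 (chr4:88910614-88910635 for the 5p arm and chr4:88910577-88910599 for the 3p arm, minus strand).
mmu-miR-31-5p: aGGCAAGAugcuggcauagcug
mmu-miR-31-3p: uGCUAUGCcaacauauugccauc
Mir143 and Mir145a, whose host transcript is made in smooth muscle, were lower, with 0 and 3.04 TPM in WT polyps, against 10.4 and 16.4 TPM in WT non-polyp tissue.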

How the data were processed

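RNA was extracted from pooled colorectal polyps and non-polyp tissue and sequenced, with 1 library per group. The methods state that the authors ran Trimmomatic, then HISAT2 against GRCm38 (mm10), then StringTie on a Galaxy server. Their versions and the annotation release are not given in the sources used here. The library kit is named differently by the labels and the methods. The deposited tables of the WT libraries give, per the file headers, TPM, FPKM (fragments per kilobase of transcript, scaled by the total number of fragments) and a coverage signal (mean read depth per base) for each gene. The deposited KO non-polyp table holds TPM and a ratio to Gapdh made by the authors, which was not used. The deposited TPM columns also list assembled loci that overlap reference genes, so only reference genes were kept, and these summed to 877159 TPM in WT polyps and 860905 TPM in WT non-polyp tissue.

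TPM was summed per gene name, 27 names that a spreadsheet had turned into dates were restored in each WT table from their gene identifiers, and the log2 ratio of TPM + 1 was taken with Python 3.11.15, pandas 2.3.3 and numpy 2.4.6. The pseudocount of 1 TPM understates the change of low genes. No filter on low values was applied to the counts of all names. The depth in reads is unknown, since read counts are not given in these tables, so no counting interval can be given. Calculations were tested on simulated data with known fold changes.

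Gene lists (51) were written from textbook knowledge, and the members and lists were chosen with earlier results of these data known. Some genes stand on several lists, such as Mmp7 with the Wnt, Paneth cell and matrix protease genes, so the list counts are not independent. Genes named in the text are Clec7a, the 15 highest and 15 lowest ratios among annotated names with 10 TPM or more in the higher library (without predicted, mitochondrial, ribosomal, sex-linked and antigen receptor names), and from each list up to 6 members with 5 TPM or more in the direction most called members took, up to 3 in the other and the first 3 listed. One of the 15 highest and a few other genes that this rule or the lists select are not reported here. Further list members that the text names, such as Sp5, Muc3, Ptges or Il22ra2, and the miRNA genes were chosen after their values were seen. Alternatives were another pseudocount, a filter on low values, FPKM, coverage per gigabase, other scalings and other ways to pick names. Sequences were matched by symbol to RefSeq tables on GRCm38.p6.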

Additional observations from a re-analysis of the deposited data

Results flagged for a closer look

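For 8 of 441 named genes the WT difference between polyps and non-polyp tissue ran opposite to that between the library labelled KO polyp and KO non-polyp tissue, each past the threshold of 1. The named genes were picked in part for large WT ratios, and the share over all gene names was not counted. The study states that polyps did not develop in the KO germ-free mice, yet it reports RNA-seq of KO polyps. What tissue that library holds is thus not known. Every group is 1 library, so the difference between the genotypes was not tested.

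Lgr5 and Smoc2, the crypt stem cell genes, had log2 ratios of 2.56 and 1.83 in WT mice, against -1.004 and -1.08 in KO mice. Lgr5 had 31.8 TPM in WT polyps and 4.57 TPM in WT non-polyp tissue, and 2.07 TPM in the library labelled KO polyp and 5.15 TPM in KO non-polyp tissue. Fst, the activin antagonist, had a log2 ratio of 2.28 in WT mice and -1.51 in KO mice.

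The other genes were lower in WT polyps and higher in the library labelled KO polyp, but most had few TPM in both WT libraries. In WT polyps Cr2, Ms4a1, Dtx1 and Mzb1 had 1.96, 1.44, 1.25 and 1.54 TPM. In WT non-polyp tissue they had 5.33, 4.71, 6.91 and 7.81 TPM. Cr2, which encodes CD21, had -1.10 in WT and 4.98 in KO mice. Ms4a1, which encodes the B cell protein CD20, had -1.23 in WT and 4.58 in KO mice, with 106 TPM in the library labelled KO polyp and 3.50 TPM in KO non-polyp tissue. Dtx1, a Notch regulator that B cells express, had -1.81 in WT and 2.59 in KO mice. Mzb1, a chaperone of antibody-secreting cells, had -1.79 in WT and 1.85 in KO mice, and Iglc2, a light chain constant gene, had -1.71 in WT and 1.33 in KO mice. The 14 B cell genes together summed to 61.7 TPM in WT polyps and 86.5 TPM in WT non-polyp tissue, and to 2142 TPM in the library labelled KO polyp and 66.8 TPM in KO non-polyp tissue, and the part of lymphoid tissue in that library was not tested.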

How the results depend on the processing

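The count of higher and lower names depends on the pseudocount, the filter and the unit. A pseudocount of 0.1 TPM gave 5926 higher and 4616 lower names and a pseudocount of 5 TPM gave 1365 and 1055, against 2822 and 2004 with 1 TPM. A mean of 5 TPM or more left 1790 and 1187, coverage per gigabase gave 1611 and 1268, and a threshold of 2, added after the data had been seen, gave 719 and 622. The other settings stayed within 1.5 times of these counts, with 2024 and 1538 by FPKM. Median-of-ratios scaling gave 2125 higher and 2490 lower names and so turned the majority round. Of 441 named genes, 290 passed the threshold with TPM as deposited. Of these, 41 no longer passed with a pseudocount of 5 TPM, 39 with coverage, 15 with FPKM and 14 with median-of-ratios scaling, and no called gene changed direction under any of these settings. No called gene list changed direction either.

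Some list medians crossed the threshold. With a pseudocount of 5 TPM the medians were 0.97 for cell division, 0.85 for cyclins, -0.53 for enteroendocrine, 0.50 for squamous, 0.52 for cytokine, 0.69 for neutrophil, 0.70 for monocyte, 0.84 for mast cell and -0.66 for neuron and glia genes. With coverage they were 0.80 for cyclins, -0.92 for enteroendocrine, 0.79 for squamous, 0.73 for cytokine, 0.87 for neutrophil, 0.66 for monocyte and -0.95 for neuron and glia genes, and with FPKM -0.92 for enteroendocrine, 0.89 for squamous and 0.82 for cytokine genes. Median-of-ratios scaling brought cell division to 0.90 and cyclins to 0.96. A pseudocount of 0.1 TPM took interferon-stimulated genes to 1.14, plasma cell genes to -1.21, T cell genes to 1.04 and genes of the interstitial cells of Cajal to -1.53. Among members at a mean of 5 TPM or more the medians were 1.73 for T cell, 1.13 for dendritic cell, -1.18 for Cajal cell and -2.85 for exocrine pancreas genes, the last 2 lists also at a mean of 1 TPM or more, where few members remain. At a mean of 1 TPM or more the exocrine pancreas list held 2 members, among them Zg16, the mucus lectin also counted with goblet cell genes. The causes were not tested, apart from the filters, which leave fewer members.

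No paired analysis was possible because each group has 1 library. With 1 pooled library per group, the spread between mice and that between libraries are unknown, and there was no replicate to leave out.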

Other observations

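Gene families were grouped by symbol after the data had been seen. They overlap the gene lists in part, so the counts describe these libraries and nothing was tested. Keratins were higher in 14 of 21 members at a mean of 1 TPM or more and lower in none, against 14.9% higher over all names at that level, and had a median log2 ratio of 2.56. Of these 21, 13 stand on the lists above, and of the 8 others 6 were higher. All 5 interferon-induced transmembrane genes at that level were higher, and Ifitm3 and Ifitm1 had 2060.2 and 680.2 TPM in WT polyps, against 205 and 52.9 TPM in WT non-polyp tissue. Among S100 calcium-binding genes 6 of 11 were higher, and 3 of the 8 that no list holds, with S100a11 at 1937 TPM in WT polyps, against 370.5 TPM in WT non-polyp tissue. Laminins, the glycoproteins of basement membranes, were higher in 4 of 9 members, and Lama5 and Lamb3 had 87.9 and 144 TPM in WT polyps, against 12.01 and 44.4 TPM in WT non-polyp tissue. Among TNF family ligands and receptors 11 of 26 were higher and 3 lower, with Tnfrsf11b (osteoprotegerin, a decoy receptor) at 130.2 TPM in WT polyps, against 3.36 TPM in WT non-polyp tissue. Of 22 semaphorins and plexins 8 (36.4%) were higher and 3 (13.6%) lower, against 14.9% and 10.5% over all names at that level. Sema3f and Plxnb1 had 134 and 43.6 TPM in WT polyps, against 20.4 and 5.19 TPM in WT non-polyp tissue. Among ephrins and their receptors, Ephb6 and Epha2 were higher with 47.8 and 67.3 TPM in WT polyps, against 2.54 and 9.08 TPM in WT non-polyp tissue, unlike Ephb2 and Ephb3.

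Of 256 solute carriers at a mean of 1 TPM or more 48 (18.8%) were higher and 52 (20.3%) lower, against 14.9% and 10.5% over all names at that level. Slc30a2, a zinc exporter, and Slc7a11, the cystine carrier, were higher with 135 and 14.2 TPM in WT polyps, against 3.08 and 0.258 TPM in WT non-polyp tissue, while Slc6a4, the serotonin carrier, and Slc15a1, the peptide carrier, were lower with 0.408 and 3.997 TPM in WT polyps, against 27.2 and 98.7 TPM in WT non-polyp tissue. All 3 butyrophilin-like genes at a mean of 1 TPM or more, whose products hold intraepithelial gamma-delta T cells, were lower, with Btnl1, Btnl6 and Btnl4 at 0.910, 5.88 and 7.11 TPM in WT polyps, against 27.7, 70.3 and 48.5 TPM in WT non-polyp tissue. Gasdermins, pore-forming proteins, were lower in 4 of 7 members and higher in 1, Gsdma, with 32.3 TPM in WT polyps and 2.22 TPM in WT non-polyp tissue. None of 81 cytosolic ribosomal protein genes passed the threshold and their median was 0.31, and none of 37 proteasome genes passed, although their median was 0.76 and all 39 proteasome names summed to 5789 TPM in WT polyps, against 3564 TPM in WT non-polyp tissue. The median over names at 1 TPM or more was 0.21. Of 83 respiratory chain genes 3 were lower with a median of -0.38. Mgp, the matrix Gla protein that restrains calcification, had 1374 TPM in WT polyps and 112 TPM in WT non-polyp tissue, and Klk1, a tissue kallikrein, had 145 TPM in WT polyps and 3672 TPM in WT non-polyp tissue.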
